A study of Mus musculus with 6 samples.

Results

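Integrins are cell surface receptors built of an alpha and a beta chain, and 10 of their subunit genes were followed among the 22180 genes measured on the arrays: the alpha chains Itga4, Itga5, Itga6, Itgal, Itgam and Itgav and the beta chains Itgb1, Itgb3, Itgb5 and Itgb7. The 10 genes were taken by name from the probe sets that carry exactly 1 gene symbol, with the probe set of the highest mean where a gene had several, and all 10 were measured. Gene expression was profiled in RAW264.7, an established mouse line of the monocyte and macrophage type, on 6 whole-transcript arrays. In both groups the cells had been expanded at 10% serum, then starved and kept in medium of 2% serum. In 1 group of 3 arrays, titled IL-33, this IL-1 family cytokine was added at 50 ng/ml, and in the other group of 3, titled PBS, the medium held none. No genetic change was named for either group, and the length of treatment was not stated in the labels. All cells came from 1 line. Separate cultures were not stated for the samples within a group, so the p-values rest on a spread that may be purely technical.

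Each integrin works only as a pair, in which the alpha chain largely sets the ligand and the short tail of the beta chain binds talin and kindlin inside the cell, which switch the receptor on. Itgal and Itgam pair with Itgb2 to form the leukocyte receptors LFA-1 and Mac-1, which bind ICAM proteins and, for Mac-1, complement and fibrinogen. Itga4 pairs with Itgb1 or Itgb7 and binds VCAM-1, fibronectin and, with Itgb7, MAdCAM-1. Itga5 with Itgb1 is the fibronectin receptor, Itga6 with Itgb1 binds laminin, and Itgav joins Itgb1, Itgb3 or Itgb5 in receptors for ligands with the arginine-glycine-aspartate motif. In the macrophage lineage Mac-1 serves adhesion and phagocytosis, and Itgav with Itgb3 is the vitronectin receptor by which osteoclasts attach to bone.

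The regions just upstream of 4 of these genes are shown as examples of each direction seen here: Itga4 and Itgb5, for which the arrays labelled IL-33 lay higher, Itga5, for which they lay lower, and Itgb1, the beta partner of Itga4 and Itga5, whose groups overlapped. Each run holds the 250 bases before the start of the gene in RefSeq on GRCm38.p6, 5′ to 3′ on the strand of the gene, and capitals mark matches to the motifs named after it. They lie at chr2:79255176-79255425, plus strand, for Itga4; chr15:103366792-103367041, minus strand, for Itga5; chr8:128685404-128685653, plus strand, for Itgb1; and chr16:33829415-33829664, plus strand, for Itgb5.
Itga4: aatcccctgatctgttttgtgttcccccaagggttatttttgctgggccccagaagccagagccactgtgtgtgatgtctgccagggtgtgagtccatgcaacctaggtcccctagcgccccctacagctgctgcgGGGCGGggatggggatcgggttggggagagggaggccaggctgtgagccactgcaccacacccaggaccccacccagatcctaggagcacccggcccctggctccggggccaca
Itga5: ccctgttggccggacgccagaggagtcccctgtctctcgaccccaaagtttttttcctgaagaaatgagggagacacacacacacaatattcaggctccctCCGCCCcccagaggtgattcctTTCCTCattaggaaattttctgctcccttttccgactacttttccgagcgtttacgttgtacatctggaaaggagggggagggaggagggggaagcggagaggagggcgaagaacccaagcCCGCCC
Itgb1: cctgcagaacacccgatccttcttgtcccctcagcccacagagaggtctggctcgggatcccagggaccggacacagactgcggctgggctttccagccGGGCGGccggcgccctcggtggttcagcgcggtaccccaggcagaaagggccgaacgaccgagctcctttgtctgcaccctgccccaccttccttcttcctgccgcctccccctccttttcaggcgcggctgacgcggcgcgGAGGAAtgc
Itgb5: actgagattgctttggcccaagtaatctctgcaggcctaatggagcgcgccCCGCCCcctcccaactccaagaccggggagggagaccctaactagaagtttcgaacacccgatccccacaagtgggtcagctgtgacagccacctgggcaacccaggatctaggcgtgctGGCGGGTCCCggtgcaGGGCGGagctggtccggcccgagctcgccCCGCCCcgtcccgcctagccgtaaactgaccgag

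Of the 10 genes 7 had an entry in the promoter table, those above and Itgam, Itgav and Itgb7, and motifs were sought on both strands in the same 250 bases. The GC box, GGGCGG, was found in 5 of the 7, Itga4, Itga5, Itgam, Itgb1 and Itgb5, and in 32.7% of all 32851 promoters of the table. The core of the site for PU.1, a transcription factor of myeloid cells, GAGGAA, was found in 4 of the 7, Itga5, Itgam, Itgav and Itgb1, and in 23.3% of all promoters. Counting back from -1 at the base before the start, the first base of these matches lay at -127 in Itga5, at -84 and -15 in Itgam, at -218 and -7 in Itgav and at -9 in Itgb1. The NF-kB site, sought as GGGA and CC with any 4 bases between, was found once, at -79 in Itgb5, and in 17.6% of all promoters. No match of the ETS site CCGGAAG, the AP-1 site TGANTCA, the interferon response repeat, sought as GAAA on either side of any 2 bases, or the TATA box TATAAA lay in these windows of the 7 genes, against 6.9%, 6.7%, 3.0% and 12.4% of all promoters. None of the matches overlapped another. The 7 windows held 49.6% to 68.0% G and C, against a median of 52.4% for the table. Of the genes higher in the arrays labelled IL-33, Itga4, Itgam and Itgb5 held GC boxes. Of those lower, Itga5 held them and Itgav and Itgb7 did not. The PU.1 core lay in Itgam of the higher genes and in Itga5 and Itgav of the lower. Itga6 and Itgal, which were higher, and Itgb3, which was lower, had no entry. Whether a motif goes with direction was not tested. The matches are a description of letters and not of bound sites.

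Across the 10 genes the differences were small and ran both ways. The laminin receptor chain Itga6 rose 1.29-fold in the arrays labelled IL-33, and it was the 1 gene of the 10 that passed (limma, adjusted p under 0.05 after Benjamini-Hochberg correction over all genes), against 0.591% of all genes, 0.275% higher and 0.316% lower; none of the 10 passed on the lower side. In 9 of the 10 genes the IL-33 arrays all lay on one side of the PBS arrays, 5 higher and 4 lower. Such separation was seen in 20.3% of all genes, and in 29.9% of the brighter genes, those whose mean was no lower than the median over genes of 5.75 (log2), where all 10 lie. At an unadjusted p under 0.05 there were 8 of the 10, 4 higher and 4 lower, against 13.2% of all genes and 17.8% of the brighter genes. The 10 were chosen with earlier results of these arrays known, so these counts describe them and support nothing further. The median log2 difference, IL-33 minus PBS, was 0.06 for the 10 genes, 0.13 for the 6 alpha chains and -0.10 for the 4 beta chains, and it was -0.0051 for all genes. Higher and lower follow the titles of the samples. The array names given with them carry the letters IL where the title says PBS and the letter P where it says IL-33, so each direction here would reverse if the titles had been swapped.

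**Figure D1:**
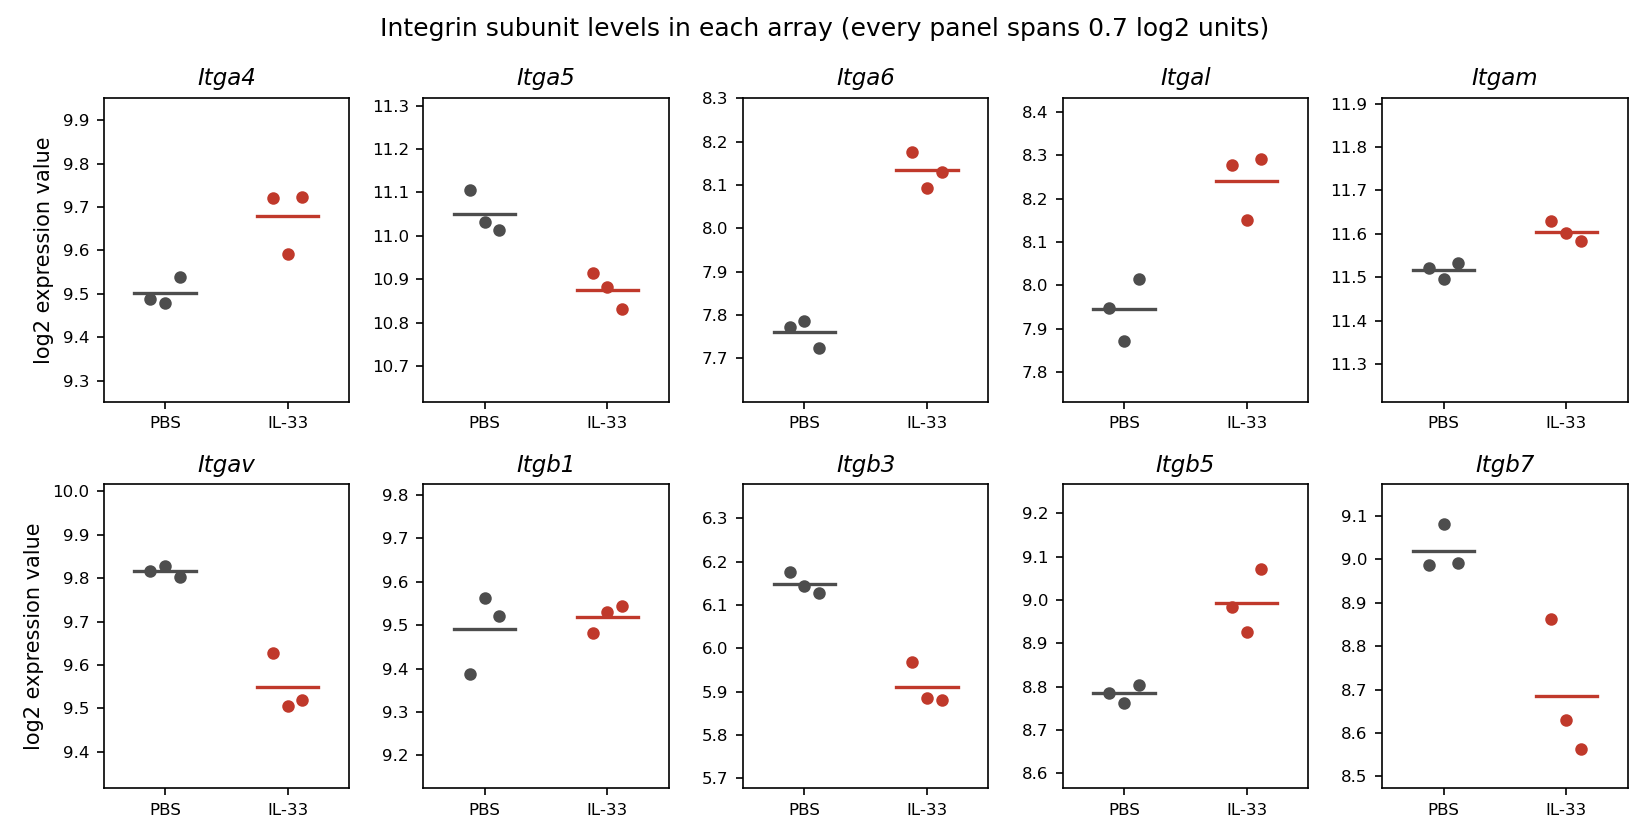
Log2 expression value (vertical axis) of the 10 integrin subunit genes in each of 3 PBS arrays (grey) and 3 IL-33 arrays (red), 1 panel per gene, with a line at each group mean; all panels span the same number of log2 units around their own midpoint. Red and grey points overlap in Itgb1, lie apart with red higher in Itga4, Itga6, Itgal, Itgam and Itgb5, and lie apart with red lower in Itga5, Itgav, Itgb3 and Itgb7.

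Across genes, r was 0.9972 to 0.9980 between arrays within a group and 0.9967 to 0.9971 between groups. The precision is limited by there being 3 arrays a group, and the standard error of a gene's log2 difference had a median of 0.073. Of 8 macrophage markers 7 were among the brighter genes, with Lyz2 and Cd68, a lysozyme and a lysosomal glycoprotein of macrophages, at 12.9 and 12.8 (log2) in the PBS arrays, while the receptor kinase gene Mertk was at 5.17. In that list 1 marker rose, the IgG receptor Fcgr1, by 1.41-fold with an adjusted p of 0.0448 (limma), and its call was lost whichever array was left out, with adjusted p of 0.0699 to 0.204. The other 7 did not pass; groups lay apart with IL-33 lower in 3 of them, the adhesion receptor Adgre1 (F4/80) at a log2 difference of -0.29, whose adjusted p was 0.114 (limma), Cd68 at -0.03 and the lipopolysaccharide co-receptor Cd14 at -0.04. The summed linear level of the macrophage list was 27642 to 28725 in the PBS arrays and 28173 to 28987 in the IL-33 arrays. Of 23 markers of lymphocytes, platelets, fibroblasts, endothelium and granulocytes that were measured, 18 were not among the brighter genes and none passed (limma), with 1 at an unadjusted p under 0.05, the platelet chemokine Pf4. In these cultures fewer expressing cells and less RNA per cell cannot be told apart.

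Among the alpha chains, Itga6 (Entrez gene 16403) had log2 values of 7.77, 7.79 and 7.72 in the PBS arrays and of 8.18, 8.09 and 8.13 in the IL-33 arrays. The lowest IL-33 array lay above the highest PBS array, and the 3 arrays of each group lay close together, at 7.76 ± 0.03 and 8.13 ± 0.04 (SD, n = 3 each). The log2 difference was 0.37 ± 0.05 (SE), with an adjusted p of 0.0358 (limma). A difference of at least this size, in either direction, was seen in 1.56% of all genes. The difference was 0.35 to 0.39 whichever array was left out, its direction being fixed by the separated groups. The call was lost in all 6 such fits, with adjusted p of 0.0937 to 0.173 (limma). It was also lost when every probe set other than controls was tested, with an adjusted p of 0.158.

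The genes whose values over the 6 arrays ran closest to Itga6, after each gene was centred on its own mean, were the predicted gene Gm5433, the ubiquitin-conjugating enzyme gene Ube2l6 and Isg15, which encodes an interferon-induced protein that resembles ubiquitin. The root mean square difference from Itga6 was 0.029, 0.030 and 0.032 log2 units over 6 arrays, in that order. Their own log2 differences between groups were 0.36, 0.38 and 0.39, with adjusted p of 0.0487, 0.05001 and 0.0238 (limma), of which the second is just above the threshold. Because these genes were chosen for closeness to Itga6 over the same 6 arrays, a group difference like that of Itga6 followed from the choice. It is not independent evidence that the genes are linked. Isg15 and Gm5433, like Itga6, lost their calls whichever array was left out, with adjusted p of 0.0654 to 0.137 and 0.109 to 0.210. Gm5433 lost its call in 10 of 13 alternatives, among them a further quantile normalization and centring on the 75th percentile, with 0.0567 and 0.0522 (limma), and its mean of 3.84 (log2) lay under the 25th percentile of genes.

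Itgal, the alpha chain of LFA-1, gave 7.95, 7.87 and 8.02 in the PBS arrays and 8.28, 8.15 and 8.29 in the IL-33 arrays. The groups did not overlap, with the second array the lowest of each. Its log2 difference of 0.29 ± 0.06 (SE) did not pass, with an adjusted p of 0.118 (limma), and its 95% confidence interval ran from 0.14 to 0.45. Itgam, the alpha chain of Mac-1 known as CD11b, gave 11.52, 11.50 and 11.53 in the PBS arrays and 11.63, 11.60 and 11.58 in the IL-33 arrays. The spread within each group was narrow, with an SD of 0.02 in both, so the groups lay apart although the difference was 0.09 ± 0.05 (log2, SE). Its adjusted p was 0.479 (limma), and the interval of -0.02 to 0.20 includes no change.

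Both chains pair with Itgb2, the common beta chain of leukocyte integrins, which is not among the 10 and was added as their partner after its values were seen. Itgb2 gave 11.16, 11.14 and 11.11 in the PBS arrays and 11.14, 11.11 and 11.10 in the IL-33 arrays. These values overlapped, with a difference of -0.02 ± 0.05 (log2, SE) and an adjusted p of 0.917 (limma). The other alpha chains of this receptor group that were measured are Itgax, the CD11c chain of macrophages and dendritic cells, and Itgad. Itgax gave 7.24, 7.21 and 7.15 in the PBS arrays and 6.48, 5.75 and 6.11 in the IL-33 arrays. It was thus lower in every IL-33 array, but those 3 arrays were far more spread than the PBS arrays, with an SD of 0.36 against 0.04. The difference of -1.09 ± 0.17 (log2, SE), a level 2.12-fold lower, missed the threshold narrowly, its adjusted p being 0.0518 (limma), and it passed in 7 of its 15 alternatives. Itgad, with a mean near the low end of the scale at 4.42 (log2), differed by -0.16.

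Itga4 gave 9.49, 9.48 and 9.54 in the PBS arrays and 9.72, 9.59 and 9.72 in the IL-33 arrays. The lowest IL-33 array exceeded the highest PBS array by little, and the difference of 0.18 ± 0.06 (log2, SE) did not pass, with an adjusted p of 0.255 (limma). A further probe set carries the symbols of both Itga4 and Cerkl and so was assigned to neither gene; its difference was 0.03. Itga5, the fibronectin receptor chain, gave 11.10, 11.03 and 11.01 in the PBS arrays and 10.92, 10.88 and 10.83 in the IL-33 arrays. Every IL-33 array lay below every PBS array. The difference was -0.17 ± 0.05 (log2, SE), with an adjusted p of 0.231 (limma), so Itga4 and Itga5 differed by similar amounts in opposite directions and neither passed.

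Itgav, the alpha chain of the vitronectin receptors, gave 9.82, 9.83 and 9.80 in the PBS arrays and 9.627, 9.504 and 9.519 in the IL-33 arrays. The PBS arrays were nearly equal, with an SD of 0.01, and all IL-33 arrays lay below them. The difference was -0.27 ± 0.05 (log2, SE), or 1.20-fold lower, and its adjusted p was 0.101 (limma). Its other probe set had a mean of 4.56, near the 25th percentile of genes at 4.41, and differed by -0.04; with the mean of both probe sets the difference of Itgav was -0.15.

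Of the beta chains, Itgb1, the partner of most alpha chains here, gave 9.39, 9.56 and 9.52 in the PBS arrays and 9.48, 9.53 and 9.54 in the IL-33 arrays. It was the gene of the 10 whose groups overlapped. The difference was 0.03 ± 0.06 (log2, SE), with an interval of -0.12 to 0.17 and an adjusted p of 0.890 (limma), and it was -0.023 without PBS replicate 1, the lowest array.

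Itgb3 gave 6.18, 6.14 and 6.13 in the PBS arrays and 5.97, 5.88 and 5.88 in the IL-33 arrays. All IL-33 arrays lay below all PBS arrays. The difference of -0.24 ± 0.05 (log2, SE) did not pass, with an adjusted p of 0.115 (limma). Itgb3 is also the beta chain of the platelet fibrinogen receptor, whose alpha chain Itga2b gave 5.86 ± 0.16 in the PBS arrays and 5.59 ± 0.07 in the IL-33 arrays (log2, SD, n = 3 each) and an adjusted p of 0.259 (limma). Of 5 platelet and megakaryocyte markers 3 were measured, and their summed linear level was 213 to 226 in the PBS arrays and 159 to 175 in the IL-33 arrays. Of the 3, Pf4 differed by -0.98 (log2), its adjusted p being 0.0593 (limma), whereas the platelet glycoproteins Gp5 and Gp9 differed by -0.06 and 0.11; the part of these markers in the Itgb3 values was not tested.

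Itgb5, the other vitronectin receptor beta chain, went the opposite way, from 8.79, 8.76 and 8.80 in the PBS arrays to 8.98, 8.93 and 9.07 in the IL-33 arrays. The groups did not overlap. The difference was 0.21 ± 0.06 (log2, SE), with an adjusted p of 0.181 (limma). Itgb7, a beta chain best known from gut-homing lymphocytes, gave 8.99, 9.08 and 8.99 in the PBS arrays and 8.86, 8.63 and 8.56 in the IL-33 arrays. Its IL-33 arrays were all lower but had the widest spread of the 10 genes, with an SD of 0.16. The difference was -0.33 ± 0.09 (log2, SE), or 1.26-fold lower, and its adjusted p was 0.168 (limma). None of the 5 lymphocyte markers measured was among the brighter genes, and their summed linear level was 101 to 113 in the PBS arrays and 106 to 108 in the IL-33 arrays.

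**Figure D2:**
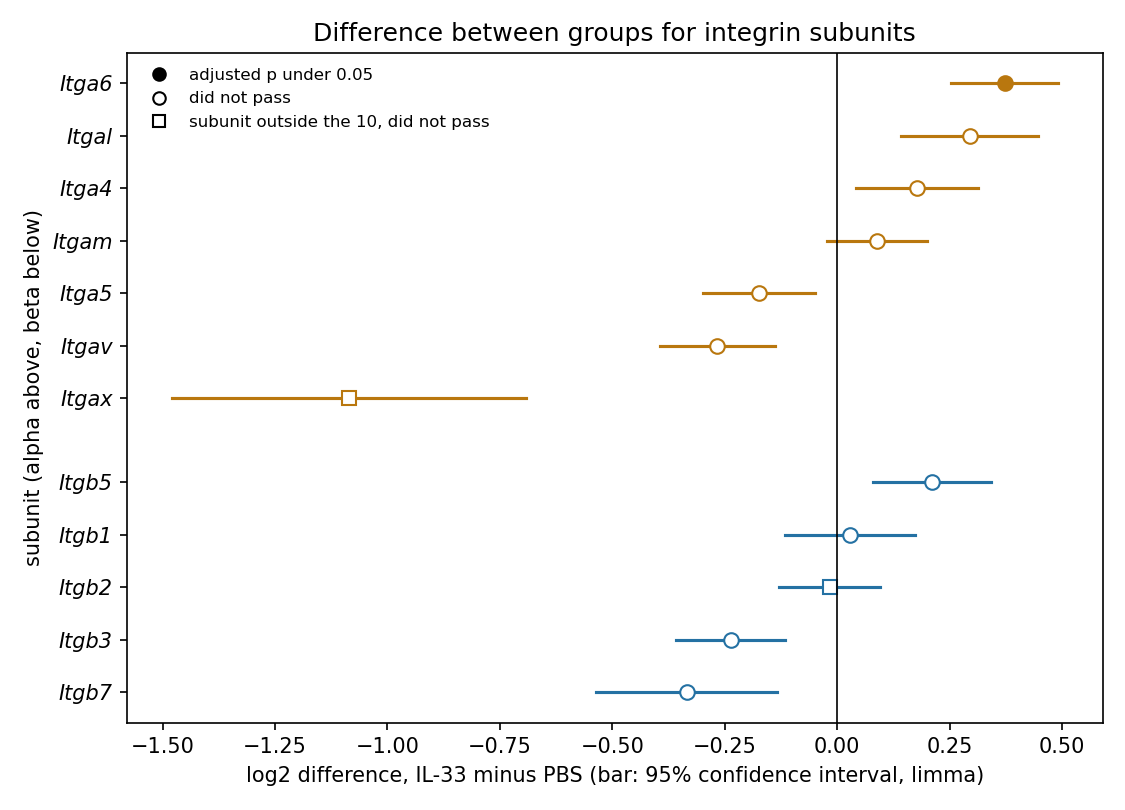
Log2 difference between groups, IL-33 minus PBS (horizontal axis), with its 95% confidence interval from limma, for alpha chains (upper group, orange) and beta chains (lower group, blue); filled symbols passed at an adjusted p under 0.05, and squares are Itgax and Itgb2, which are not among the 10. Itga6 at 0.37 is the filled point, the intervals of Itgam, Itgb1 and Itgb2 cross 0, and Itgax lies furthest from 0 at -1.09.

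The number of the 10 genes that passed depended on which genes were fitted and on the prior variance. With the brighter genes fitted alone, 6 of the 10 passed, against 6.85% of those genes; these were Itga6, Itgal, Itgav, Itgb3, Itgb5 and Itgb7. With a prior variance trended on intensity and robust to outliers, 7 of the 10 passed, against 4.51% of all genes. In that fit Itga4 and Itga5 passed with adjusted p of 0.0488 and 0.0164 (limma), and Itgb3 did not. The directions of the 9 genes other than Itgb1 were those given above in all the alternatives run for them. Groups of these genes did not overlap, so refitting the same values, weighting arrays or leaving out an array could not reverse the directions. Only the further quantile normalization, the percentile centring and, for Itgav, the mean of its probe sets could have done so.

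Partners within a receptor were then compared through the difference between alpha and beta log2 values in each array. This asks whether the chains of a pair changed by unequal amounts and does not set their levels against each other. The SE of a pair was taken only from the spread of that pair's own values. The SE of a single gene came from limma, which also draws on the spread of the other genes. A smaller SE for a pair than for its chains therefore does not show that the pair difference is better established. Of 7 pairs compared, 5 had alpha minus beta values that did not overlap between groups. How often this occurs among pairs of other genes was not computed, so the count has no background to be read against. Every chain in the 7 pairs other than Itgb1 had groups that lay apart on its own. Separation of a pair may therefore follow from its single genes. Among the 5, the pairs of Itga5, Itga6 and Itgav with Itgb1 also share the same Itgb1 values. With 3 arrays against 3, the two-sided exact permutation test over 20 splits cannot give a p below 0.1. No pair could therefore pass at 0.05. Each of the 5 pairs reached an exact permutation p of 0.1, or 0.14 adjusted over the 7 pairs. In this test 0.1 only restates that the values did not overlap and adds no support.

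Itgav and Itgb3 differed by nearly the same amount, -0.27 and -0.24 (log2). Their alpha minus beta value was 3.64, 3.69 and 3.68 in the PBS arrays and 3.66, 3.62 and 3.64 in the IL-33 arrays. These overlapped, and the difference of the changes was -0.03 ± 0.02 (log2, SE), with an exact permutation p of 0.2 over 6 arrays. It turned to 0.084 when Itgav was taken as the mean of its probe sets. Itgav and Itgb5 ran apart, with alpha minus beta values of 1.031, 1.066 and 0.999 in the PBS arrays and 0.64, 0.58 and 0.45 in the IL-33 arrays. The difference of the changes was -0.48 ± 0.06 (log2, SE), with the smallest exact p the design allows. Each of these chains lay apart between groups in opposite directions, so their alpha minus beta values had to lie apart too. Against Itgb1, Itgav changed by -0.29 ± 0.08 (log2, SE), again without overlap.

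Itga4 and Itgb7 gave the widest gap of the 7 pairs. Alpha minus beta was 0.50, 0.40 and 0.55 in the PBS arrays and 0.86, 0.96 and 1.16 in the IL-33 arrays. The difference of the changes was 0.51 ± 0.10 (log2, SE), with both chains contributing, Itga4 by 0.18 and Itgb7 by -0.33. As each chain lay apart between groups in opposite directions, the values of this pair could not overlap. With Itgb1 as the partner, Itga4 changed by 0.15 ± 0.07 more (log2, SE), and these values overlapped, with an exact permutation p of 0.2 over 6 arrays. Against the same Itgb1, Itga6 changed by 0.34 ± 0.07 and Itga5 by -0.20 ± 0.09 (log2, SE). The alpha chains that share Itgb1 thus differed from it in both directions; these pairs hold the same Itgb1 values and are not independent.

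The pairs with Itgb2 were added after the values were seen. Itgal changed by 0.31 ± 0.07 and Itgam by 0.11 ± 0.02 (log2, SE) relative to Itgb2, without overlap in either pair. As for the other pairs, these SEs rest on each pair's own values and cannot be set against the limma SEs of the single genes. Their exact permutation p was 0.1, or 0.129 adjusted over the 9 pairs, which again only restates the lack of overlap.

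**Figure D3:**
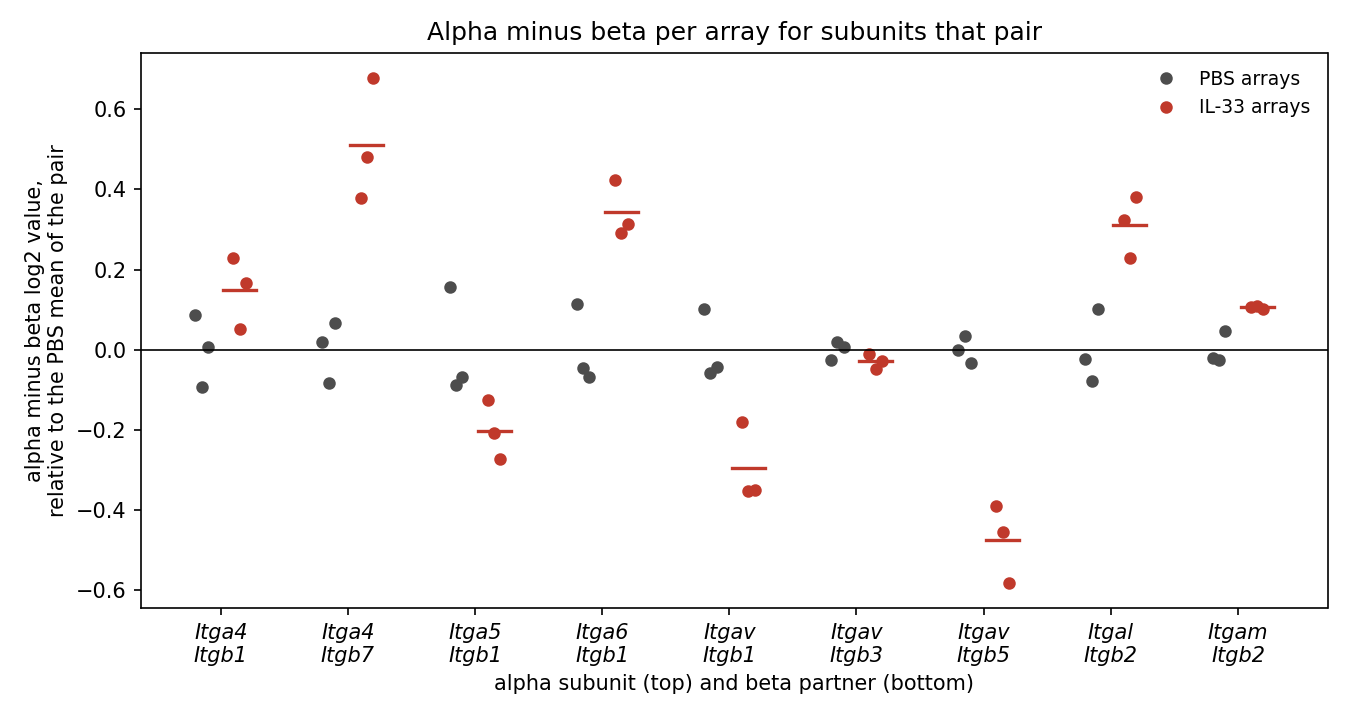
Alpha minus beta log2 value of each array, set to 0 at the PBS mean of the pair (vertical axis), for 9 pairs of subunits that join in a receptor (horizontal axis); grey points are the 3 PBS arrays, red points the 3 IL-33 arrays and red lines the IL-33 means. Itga4 with Itgb7 at 0.51 and Itgav with Itgb5 at -0.48 lie furthest from 0, and Itgav with Itgb3 lies at -0.03.

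Beyond the 10, 97 genes that act with integrins were listed by role, of which 89 were measured. Of these 2 fell, none rose and 87 did not pass (limma, adjusted over all genes), against 0.591% of all genes that passed, and 17 had an unadjusted p under 0.05, against 13.2%. Their median log2 difference was -0.036, against -0.0051 for all genes, and groups did not overlap in 7 genes that were higher and 26 that were lower, against 10.3% and 10.1% of all genes. Of the 89, 55 were among the brighter genes, and 25 of these had groups that did not overlap, 5 higher and 20 lower. The share of all brighter genes was 29.9% over both directions and was not split by direction.

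The 2 genes that fell were kinases that carry integrin signals inward. Src, a tyrosine kinase that binds the Itgb3 tail, gave 8.61, 8.52 and 8.64 in the PBS arrays and 8.001, 7.826 and 7.848 in the IL-33 arrays. It was lower in every IL-33 array, 1.63-fold on average, a log2 difference of -0.70 ± 0.07 (SE) at an adjusted p of 0.0133 (limma). Syk, which couples leukocyte integrins to adaptors with activation motifs, gave 9.53, 9.39 and 9.49 in the PBS arrays and 9.03, 9.04 and 8.92 in the IL-33 arrays. The groups lay well apart, and Syk was 1.39-fold lower, a log2 difference of -0.47 ± 0.06 (SE) at an adjusted p of 0.0335 (limma). Src was lost in 4 of the 6 fits without an array, with adjusted p up to 0.0811, and Syk in all 6, with 0.0748 to 0.158. Both were also lost when every probe set other than controls was tested, with 0.0726 and 0.146. Of the 15 kinases, GTPases and adaptors measured in this list the other 13 did not pass, and the median was -0.04.

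Of 16 further integrin subunits measured none passed (limma), with 2 at an unadjusted p under 0.05, Itgax and Itga2b, both given above; 11 of the 16 were not among the brighter genes. Of 22 ligands none passed, with 7 at an unadjusted p under 0.05 and a median of -0.05. The laminin chain Lamc1, a part of ligands of the Itga6 receptors, was 10.22 ± 0.02 in the PBS arrays and 10.49 ± 0.03 in the IL-33 arrays (log2, SD, n = 3 each), with an adjusted p of 0.0720 (limma). Edil3, a secreted ligand of Itgav receptors, was 9.78 ± 0.03 and 9.52 ± 0.03 (log2, SD, n = 3 each), and its adjusted p was 0.0866 (limma).

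Among 21 activators and adaptors 0 passed (limma), with 2 at an unadjusted p under 0.05 and a median of -0.010. These 2 were Actn1, an actinin that links beta tails to actin, at -0.30 with an adjusted p of 0.0915, and Bcar1, a scaffold phosphorylated on adhesion, at -0.33 with 0.194 (log2 differences, limma). Of 3 inactivators none passed and none had an unadjusted p under 0.05, with Itgb1bp1, which competes with talin for the Itgb1 tail, at -0.09 and the adaptor Dok1 at 0.09. Of 12 membrane partners none passed, with 2 at an unadjusted p under 0.05, the integrin-associated protein Cd47 at 0.28 and the scavenger receptor Cd36 at -0.25 (log2 differences), with adjusted p of 0.0763 and 0.113 (limma).

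**Figure D4:**
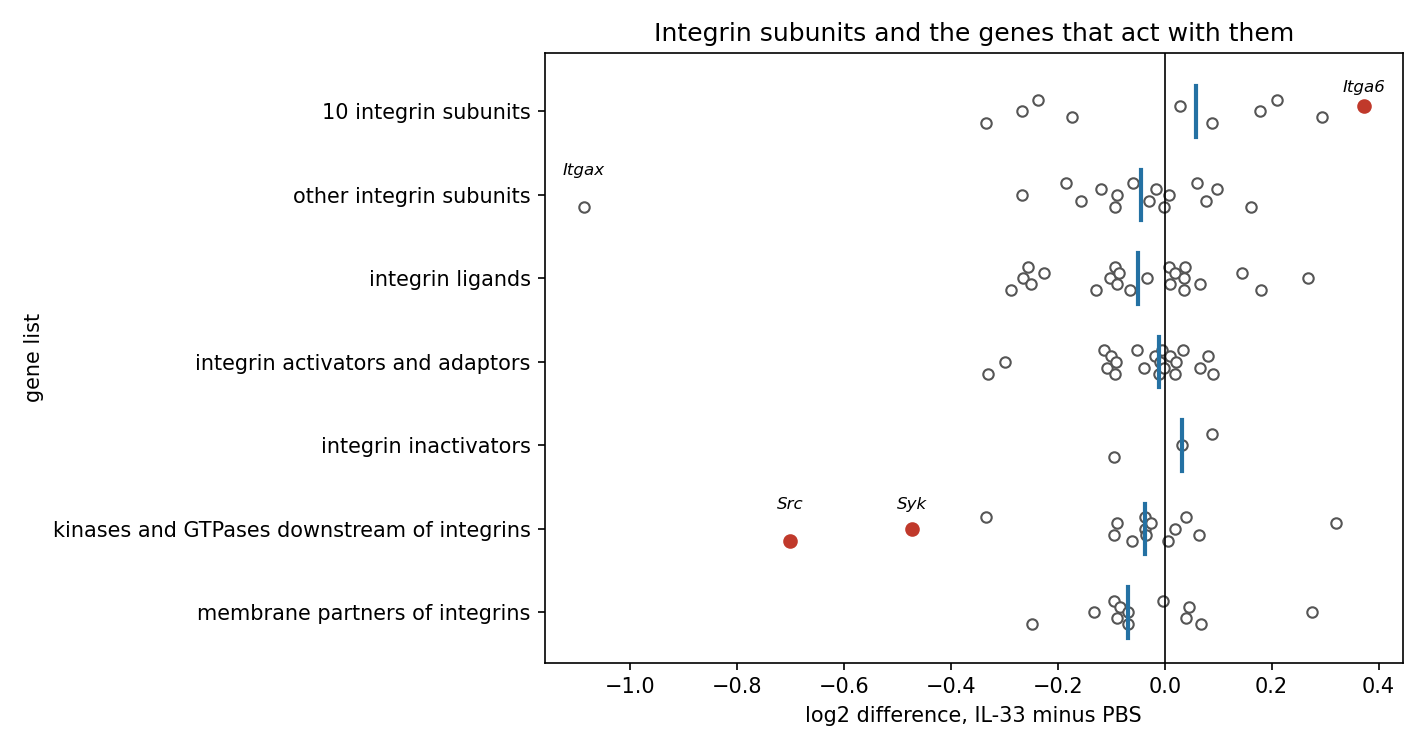
Log2 difference, IL-33 minus PBS (horizontal axis), of each measured gene of the 10 integrin subunits and of 6 lists of genes that act with them (vertical axis); red points passed at an adjusted p under 0.05 (limma), open points did not, and blue bars are list medians. The passing points are Itga6 on the higher side and Src and Syk on the lower side, and the open point at -1.09 is Itgax.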

How the data were processed

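Total RNA was extracted with Trizol, amplified and biotin-labelled for whole-transcript arrays, per the labels' protocols. The deposited values are log2 expression values, 1 for each probe set on each array, which the authors made with RMA per the submitters' processing notes (settings not given in the sources used here). Because RMA equalises the arrays' distributions, a shift common to most genes is hidden, and differences near either end of the scale shrink. Detection calls were not analysed here. Of 41345 probe sets 23521 carried exactly 1 symbol, giving 22180 genes, each by its probe set with the highest mean. Groups came from the sample titles. All genes were fitted by lmFit and eBayes of limma 3.58.1 (R 4.3.3), without covariates or filter, and p-values were adjusted by Benjamini-Hochberg and called under 0.05. Differences are IL-33 minus PBS on the log2 scale. The fit was tested on simulated data drawn from its own fitted prior variance, without a trend on intensity. That test therefore cannot speak to the choice of prior variance. Figures used matplotlib 3.10.9 (Python 3.11.15).

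Replicate numbers run from 1 to 3 in both groups, without a stated shared culture or day. Deviations of same-numbered arrays correlated at 0.022 to 0.088, and those of arrays with other numbers at -0.125 to 0.059. This does not settle whether arrays were paired, and no pairing was assumed because none was stated. The 10 genes, the lists and the tests were chosen with earlier results of these data known. Named beside the 10 were up to 4 genes of each list that passed with the largest change, or 2 with the smallest p where none passed, and the 3 genes closest to a subunit that passed; Itgb2, Itgad, Fcgr1, Adgre1, Cd14, Pf4, Gp5, Gp9, Lyz2, Cd68, Mertk, Ptk2b, Fgr, Mfge8 and Vwf were chosen after their values were seen. Alternatives were 2 filters on dim genes, another quantile normalization, centring at the 75th percentile, averaging a gene's probe sets, all probe sets, the replicate block, a trended and robust prior variance, array weights, and leaving out each array.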

Additional observations from a re-analysis of the deposited data

How the results depend on the processing

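Of the 10 subunits, 1 passed in the fit reported and 6 passed with the brighter genes fitted alone, 7 with the trended and robust prior variance, and 0 with all probe sets other than controls. Over all genes the count of 131 became 760, 1000 and 17 in the same order, and 296 with genes under the 25th percentile of the mean left out. Leaving out each array in turn gave 15 to 83 genes, 0 of the 10 subunits in every case and 0 to 2 of the listed partner genes, against 2; fewer arrays were fitted in these. With the replicate number as a block 21 genes, 0 subunits and 0 listed partner genes passed, and Itga6 had an adjusted p of 0.150 (limma); 4 of the 6 arrays correlated best with the array of their own number, which is a hint from the data and not the design. The number of subunits whose groups did not overlap was 9 in every alternative that gave one. It could have fallen only with the further quantile normalization, the percentile centring or the averaging of probe sets. The other alternatives kept each array's values or left out an array, which cannot make separated groups overlap. Of the subunit and pair values 2 turned in sign: Itgb1 to -0.023 without PBS replicate 1, with 0.064 as the highest value without an array, and Itgav minus Itgb3 to 0.084 with the mean of all probe sets. The cause was not tested for the other changes.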

Other observations

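A few further genes around these receptors had small differences with groups that did not overlap, and none of them passed. Such separation was seen in 20.3% of all genes and in 29.9% of the brighter genes. Ptk2b, the focal adhesion kinase relative of myeloid cells and osteoclasts that acts with Src, was 10.81 ± 0.07 in the PBS arrays and 10.48 ± 0.04 in the IL-33 arrays (log2, SD, n = 3 each), with an adjusted p of 0.0609 (limma). Fgr, a Src family kinase of myeloid cells, ran the other way, from 6.94 ± 0.04 to 7.27 ± 0.07 (log2, SD, n = 3 each), with an adjusted p of 0.0720 (limma). Among ligands of Itgav receptors, the bridging protein Mfge8, which links dying cells to phagocytes, was 10.45 ± 0.02 and 10.20 ± 0.04 (log2, SD, n = 3 each), and von Willebrand factor, Vwf, was 5.86 ± 0.03 and 5.59 ± 0.05 (log2, SD, n = 3 each). Their adjusted p were 0.0959 and 0.0944 (limma). Mfge8 and Vwf were picked after their values were seen. Of the 22 ligands measured 10 had a difference above 0 and 12 below.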
